A study of Mus musculus with 20 samples.

Results

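The sarcomeric myosin heavy chain genes encode the motor proteins of the thick filament of striated muscle. The 8 genes Myh4, Myh1, Myh2, Myh7, Myh3, Myh8, Myh7b and Myh6 were chosen by name, out of 35579 genes with values in the deposited files, and each was followed through all 20 RNA sequencing libraries. Of these, 10 came from skin and 10 from skeletal muscle of wild-type C57BL/6J mice, taken 70 days after the left hindlimb received 35 Gy of electrons or none. The electrons were delivered at ultra-high dose rate (FLASH, 4 libraries a tissue) or at conventional dose rate (CONV, 3 a tissue), and sham mice (3 a tissue) were not irradiated. All skin libraries were labelled batch 1 and all muscle libraries batch 2, so tissue and batch cannot be told apart. The labels gave no age and did not name the muscle that was taken. Replicates carry numbers but no statement that each is its own animal, so the p-values reflect sample-to-sample spread that may be technical in part.

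In an adult limb muscle each fibre is built mainly around 1 heavy chain, and that chain sets how fast the fibre contracts. Myh4 marks the fastest glycolytic fibres (type IIB), Myh1 the IIX fibres, Myh2 the fast oxidative IIA fibres and Myh7, which is also a heart gene, the slow type I fibres. Myh3 (embryonic) and Myh8 (perinatal) are used by developing and regenerating fibres, Myh6 is the alpha chain of the heart, and Myh7b is an ancient relative of Myh7 that hosts a microRNA in an intron. Myosin type follows nerve activity, load and the calcium signals they bring, and denervated or injured fibres can switch from one chain to another.

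Myh3, Myh2, Myh1, Myh4 and Myh8 lie in that order on the plus strand of chromosome 11 (GRCm38/mm10, GENCODE M21). Myh3 (ENSMUSG00000020908) spans 67078300 to 67102291, Myh2 (ENSMUSG00000033196) 67171027 to 67197517 and Myh1 (ENSMUSG00000056328) 67200052 to 67224575. Next to them Myh4 (ENSMUSG00000057003) spans 67238029 to 67260446 and Myh8 (ENSMUSG00000055775) 67277124 to 67308634. Myh6 (ENSMUSG00000040752, 54941921 to 54966927) and Myh7 (ENSMUSG00000053093, 54970684 to 54994626) are neighbours on the minus strand of chromosome 14, and Myh7b (ENSMUSG00000074652, 155611212 to 155634307) lies on the plus strand of chromosome 2.

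The sequences just upstream of the genes are shown because members of the chromosome 11 cluster, which lie side by side, took different courses across the muscle libraries, while Myh2, Myh3, Myh7 and Myh7b, from 3 chromosomes, varied together. Windows of up to 250 bases are given 5′ to 3′ on the strand of the gene, from RefSeq for GRCm38.p6, and stop before the first base of every annotated model. RefSeq windows were matched for 7 of the 8 members. Capitals in the first 3 mark a run of 20 bases that all of them hold.
Myh4, chr11:67237562-67237811, plus strand: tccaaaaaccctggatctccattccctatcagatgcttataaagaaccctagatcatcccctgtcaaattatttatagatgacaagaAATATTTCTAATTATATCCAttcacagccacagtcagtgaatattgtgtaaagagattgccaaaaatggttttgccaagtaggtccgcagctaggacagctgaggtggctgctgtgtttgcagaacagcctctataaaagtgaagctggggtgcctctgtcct
Myh1, chr11:67199852-67200051, plus strand: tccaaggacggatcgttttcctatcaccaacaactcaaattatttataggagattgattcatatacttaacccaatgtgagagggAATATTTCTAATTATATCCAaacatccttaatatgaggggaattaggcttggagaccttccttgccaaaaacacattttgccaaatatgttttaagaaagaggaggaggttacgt
Myh2, chr11:67170777-67171026, plus strand: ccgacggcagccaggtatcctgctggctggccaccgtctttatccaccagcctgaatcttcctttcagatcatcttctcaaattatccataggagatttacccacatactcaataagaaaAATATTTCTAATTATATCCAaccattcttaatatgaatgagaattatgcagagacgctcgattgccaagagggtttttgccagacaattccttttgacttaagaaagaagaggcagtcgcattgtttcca
The run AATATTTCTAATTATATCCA begins 163, 165 and 130 bases before the RefSeq start of Myh4, Myh1 and Myh2. It was chosen as the longest run that these 3 windows share, so its presence in them was fixed by the choice. It was found in 3 of 32851 mouse promoter windows (0.00913%, both strands searched), the 3 being these. Myh8 lacked an exact copy of the whole run, but its window held 14 bases of the run in a row, shared with Myh2. Myh8 also shared the 22 bases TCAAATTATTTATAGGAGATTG with Myh1, and 17 bases that overlap them with Myh4. The second group of windows carries capitals at the E-box motif, spelled CANNTG. Muscle regulators such as MyoD are known to bind some forms of it, and the middle letters differ between the marked sites.
Myh7, chr14:54994627-54994876, minus strand: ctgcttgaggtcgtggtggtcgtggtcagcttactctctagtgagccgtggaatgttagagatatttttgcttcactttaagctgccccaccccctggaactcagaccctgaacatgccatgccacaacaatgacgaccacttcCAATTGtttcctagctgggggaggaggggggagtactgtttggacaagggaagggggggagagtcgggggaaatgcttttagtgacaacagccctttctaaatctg
Myh3, chr11:67078050-67078299, plus strand: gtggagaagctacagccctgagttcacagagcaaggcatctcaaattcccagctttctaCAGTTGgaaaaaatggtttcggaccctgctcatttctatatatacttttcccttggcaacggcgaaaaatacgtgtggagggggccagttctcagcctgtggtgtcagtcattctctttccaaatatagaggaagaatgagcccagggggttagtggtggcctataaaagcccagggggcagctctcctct
Myh7b, chr2:155610993-155611211, plus strand: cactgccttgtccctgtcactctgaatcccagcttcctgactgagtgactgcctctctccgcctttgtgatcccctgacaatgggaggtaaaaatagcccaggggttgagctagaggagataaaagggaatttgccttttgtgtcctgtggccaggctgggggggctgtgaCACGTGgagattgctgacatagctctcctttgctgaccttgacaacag
An E-box was present in 5 of the 7 member windows and in 66.2% of all promoter windows, and Myh1 and Myh2 held none. The MEF2 motif, bound by another family of muscle regulators, was present in Myh4, Myh1 and Myh8 (3 of 7 windows) and in 2.92% of all windows. In Myh4, Myh1 and Myh8 the MEF2 match overlaps a match to the motif TATAAA, which was found in 4 of the 7 windows and in 12.4% of all. These are matches of letters and not measured binding sites. Myh2 and Myh7 shared no more than 9 bases in a row.

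Libraries held 10032501 to 12139764 estimated counts in muscle and 24090098 to 32861018 in skin. Levels are given as TPM, the authors' unit of relative abundance corrected for transcript length, summed over the models of a gene. For 5 muscle and 2 skin libraries, all sham or FLASH, the file carried the library name of another record. Groups follow the record. Values by library name are given where the sign of a member's difference turned with it, and for some members whose difference changed only in size. No CONV file was affected, so CONV against the other 7 libraries of its tissue is the same both ways. The label of each tissue fitted its markers, with 16 skeletal muscle markers summing to at least 51620 TPM in muscle and 10 epidermis and hair markers to at least 7127 TPM in skin. The authors' kit marks strand, but whether the counting used it is not stated in the labels or file headers, so antisense transcripts inside these genes cannot be told apart from them.

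Muscle from every group was dominated by Myh4, and the libraries differed most in the lower chains. In bulk tissue, fewer fibres of a type and less RNA per fibre cannot be told apart. Myh4 was at 11018, 7037 and 7631 TPM in sham 1 to 3, at 7423, 10022, 7326 and 8860 in FLASH 1 to 4 and at 11237, 6570 and 7407 in CONV 1 to 3. It ranked first in 10 of 10 libraries, its highest level was 1.71 times its lowest, and the groups overlapped. The 8 genes together held 3.53% to 4.54% of the matched counts of a library.

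Myh1 was at 141, 1214 and 507 TPM in sham 1 to 3, 637, 290, 780 and 367 in FLASH and 177, 602 and 491 in CONV. Sham held both its lowest and its highest library, and the range was 8.59-fold. Myh1 ranked second among the members in 8 libraries and was overtaken by Myh2 in the other 2, CONV 2 and CONV 3.

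Myh2 was at 63.0, 60.1 and 200 TPM in sham 1 to 3, 510, 86.7, 40.3 and 156 in FLASH and 91.0, 707 and 690 in CONV. Its 3 highest libraries were CONV 2, CONV 3 and FLASH 1, and CONV 1 sat among the sham values. Myh7 was at 10.3, 1.83 and 63.6 TPM in sham 1 to 3, 127, 19.4, 0.413 and 40.8 in FLASH and 4.25, 674 and 237 in CONV. The same 3 libraries were highest, the groups overlapped, and the counts behind the lowest and highest level were 9 and 26829. Between its extremes Myh7 varied over a 1630-fold range in TPM, far more than any adult fast chain.

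The developmental and minor chains were low. Embryonic Myh3 was at 0.168, 0.138 and 0.463 TPM in sham 1 to 3, 0.595, 0.339, 0.106 and 0.493 in FLASH and 0.237, 7.53 and 2.38 in CONV. CONV 2 (365 counts) and CONV 3 (122 counts) stood above every other library, the next being FLASH 1 with 33 counts, and CONV 1 had 10. Perinatal Myh8 was at 0.496, 0.638 and 0.602 TPM in sham 1 to 3, 0.542, 0.435, 0.398 and 0.481 in FLASH and 1.44, 1.07 and 0.634 in CONV. CONV 1 was its highest library, with 57 counts, and CONV 3 lay just under sham 2, so the groups overlapped. Myh7b was at 0.205, 1.27 and 1.29 TPM in sham 1 to 3, 1.72, 0.472, 0.124 and 0.864 in FLASH and 0.277, 14.7 and 3.31 in CONV. Myh6 had 1 to 70 counts a library. Since 32.2% of the 31-base words of the main Myh7 model also occur in Myh6, counts this low are uncertain where Myh7 is abundant. In sham 2 Myh7 was not, with 53 counts of Myh6 beside 47 of Myh7. Of the 31-base words of the full-length Myh8 model, 15.3% also occur in the main Myh4 model. The 18 to 57 counts of Myh8 a library, beside abundant Myh4, are therefore uncertain too. Of the words of the Myh3 model, 6.27% also occur in the full-length Myh2 model Myh2-203. Low Myh3 counts beside more abundant Myh2 are thus uncertain as well.

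**Figure D1:**
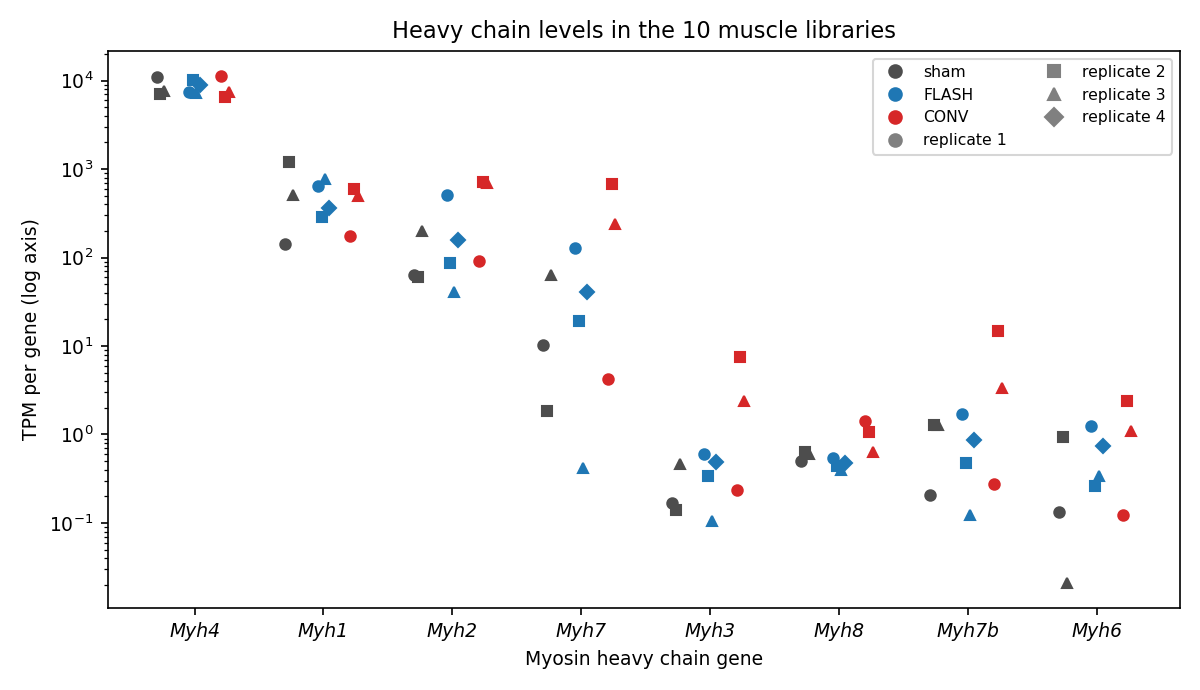
TPM of each heavy chain gene (log axis) in the 10 muscle libraries, colour showing the group and marker shape the replicate number, 1 point a library. Myh4 sits between 6570 and 11237 TPM in all groups, while in Myh2, Myh7, Myh3 and Myh7b CONV 2 and CONV 3 sit at the top and CONV 1 lies with the sham and FLASH points.

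Shares of the summed heavy chain TPM do not depend on how a library is scaled. The Myh4 share in sham 1 to 3 was 98.1%, 84.6% and 90.8%. FLASH 1 to 4 had 85.3%, 96.2%, 89.9% and 94.0% Myh4, and CONV 1 to 3 had 97.6%, 76.6% and 83.9%. Where Myh4 held less, the rest was made up differently. Sham 2 filled it with Myh1 (14.6%) and held only 0.745% Myh2 and Myh7 together, whereas CONV 2 held 7.01% Myh1, 8.25% Myh2 and 7.86% Myh7. The oxidative chains Myh2 and Myh7 together made up 16.1% in CONV 2, 10.5% in CONV 3 and 7.32% in FLASH 1, and 0.50% to 3.14% in the other libraries.

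The share of Myh2 averaged 5.62% ± 4.18 (SD, n = 3) in CONV and 1.79% ± 1.92 (SD, n = 7) in the other muscle libraries (2-sided exact permutation p = 0.0417). For Myh7 the means were 3.53% ± 3.98 (SD, n = 3) and 0.423% ± 0.532 (SD, n = 7), with an exact permutation p of 0.05. Neither passed after Benjamini-Hochberg adjustment over the 16 share tests (exact permutation, adjusted p = 0.40 for both), and each was higher in 2 of 3 CONV libraries than in all 7 others. Myh4 averaged 86.0% ± 10.7 in CONV and 91.3% ± 5.16 in the other 7 libraries (SD, n = 3 and 7, exact permutation p = 0.283). Against sham alone the smallest p that 3 against 3 libraries allow is 0.10, and the exact permutation p values ran from 0.20 to 0.70. FLASH and sham shares had exact permutation p values of 0.686 to 1.00, with Myh4 at 91.3% ± 4.79 (SD, n = 4) and 91.2% ± 6.74 (SD, n = 3).

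**Figure D2:**
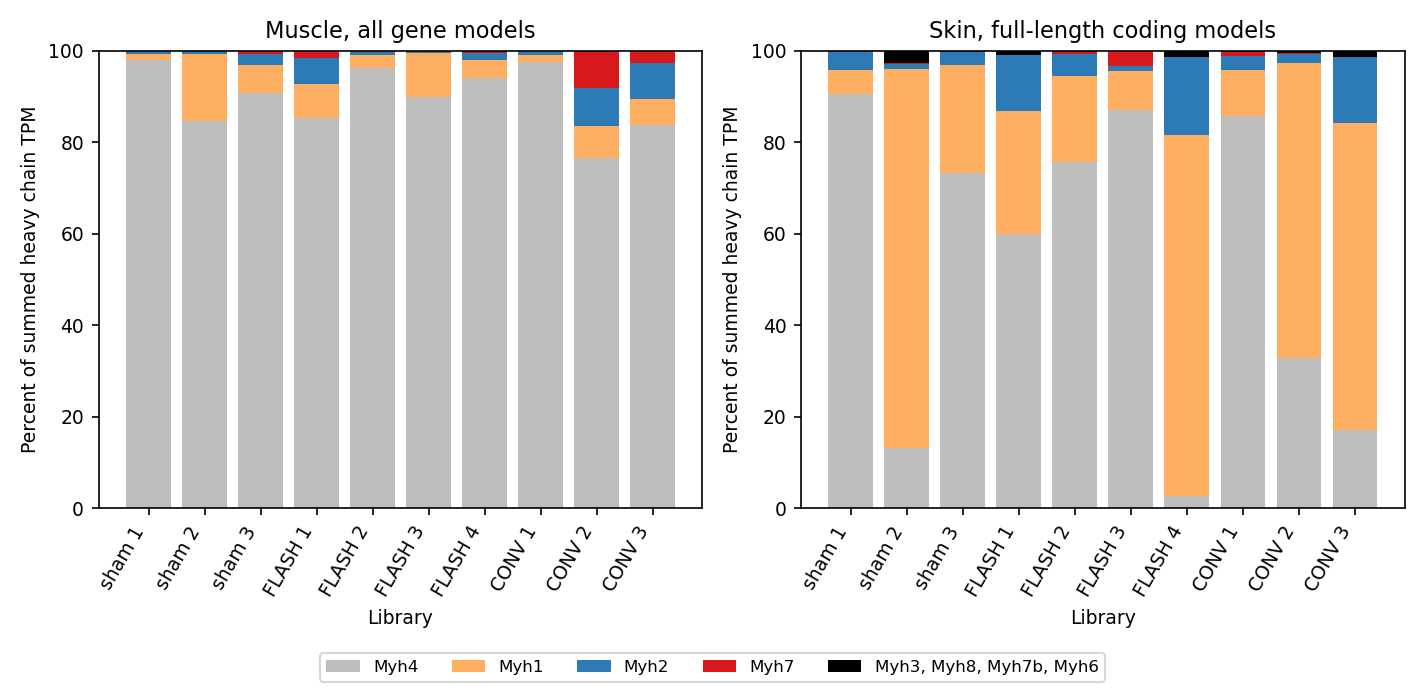
Stacked bars from 0 of the percent of summed heavy chain TPM held by each gene in every library, muscle on the left (all models) and skin on the right (full-length coding models). Myh4 fills 76.6% to 98.1% of every muscle bar with Myh2 and Myh7 widest in CONV 2, whereas Myh1 is the widest segment in 4 skin bars.

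Across all genes, edgeR's quasi-likelihood test placed none of the 8 members past an adjusted p of 0.05 in CONV muscle against the other 7 libraries. In that comparison it called 8 of 13080 genes, or 0.0612%. DESeq2 called 159 genes and also no member, and 1555 genes had an unadjusted p under 0.05 in edgeR. The median log2 fold change of the members was 1.52, with 6 higher and 2 lower, beside 0.01 over all genes tested. Every CONV library lay above the other 7 for 0 of the 8 members and for 1.98% of all genes, and below them for 0 members and 2.47% of genes.

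By role, the slow chain Myh7 differed by 2.99 ± 1.57 (log2 fold change ± SE, edgeR adjusted p = 0.490) and the IIA chain Myh2 by 1.50 ± 0.87 (adjusted p = 0.531). The embryonic chain Myh3 differed by 3.18 ± 0.80 (edgeR adjusted p = 0.185) and the perinatal chain Myh8 by 0.81 ± 0.22 (adjusted p = 0.166). Myh7b was at 2.56 ± 0.91 and Myh6 at 1.53 ± 0.91. The fast chains Myh4, at -0.21 ± 0.17, and Myh1, at -0.66 ± 0.70, had negative values that did not pass the test. The sign of Myh1 turned, to 0.58, when the libraries with a conflicting name were left out. Myh3 was the only member called in any of the alternatives run, at 3.72 ± 0.48 (edgeR adjusted p = 0.0174) without CONV 1, a setting in which 0.666% of 13373 genes were called. Over the alternatives of the 4 muscle comparisons the adjusted p of Myh3 ran from 0.0174 to 1.00 and that of Myh8 from 0.0727 to 1.00.

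Against sham alone the CONV muscle values were of similar size with wider errors. Myh3 differed by 3.52 ± 1.16 (log2 fold change ± SE, edgeR adjusted p = 0.400), Myh7 by 3.46 ± 2.29, Myh2 by 2.03 ± 1.15 and Myh7b by 2.42 ± 1.24. Myh8 differed by 0.62 ± 0.26 and Myh4 by -0.26 ± 0.21. The edgeR test called 1 gene of all, or 0.00765%, and none of the 8 members, while DESeq2 called 49 genes and 1312 had an unadjusted edgeR p under 0.05. The called gene was Glul, which encodes glutamine synthetase, at 1.50 ± 0.19 with an adjusted p of 0.0338.

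FLASH against CONV, the comparison of dose rates at equal dose, put Myh8 at -0.98 ± 0.25 (log2 fold change ± SE, edgeR adjusted p = 0.292) and Myh3 at -2.98 ± 0.98 (adjusted p = 0.50). Myh7 was at -2.71 ± 1.99, Myh2 at -1.20 ± 1.03 and Myh4 at 0.18 ± 0.20. None of the 8 members passed in edgeR, 1 gene of all did (0.00765%), DESeq2 called 41, and 1086 genes had an unadjusted edgeR p under 0.05. This comparison shares its CONV libraries with the one against sham, so the values of both rest on the same 3 samples.

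FLASH against sham gave an edgeR adjusted p of 0.999 for each of the 8 members. Myh2 was at 0.82 ± 1.05, Myh7 at 0.75 ± 1.99, Myh3 at 0.54 ± 1.32 and Myh4 at -0.08 ± 0.20 (log2 fold change ± SE). No gene of all was called (0%), 327 had an unadjusted edgeR p under 0.05, and DESeq2 called 1. The errors of Myh7 and Myh3 leave several-fold differences in either direction undetectable with these libraries. Assigned by library name, the values were 1.85 ± 0.91 for Myh2, 2.75 ± 1.93 for Myh7 and -0.32 ± 0.17 for Myh4 (edgeR adjusted p = 0.565, 0.690 and 0.563). By name the share of Myh2 was 2.65% ± 2.24 in FLASH and 0.629% ± 0.179 in sham (SD, n = 4 and 3, exact permutation p = 0.143). CONV against sham by name gave 5.08 ± 2.20 for Myh7, 2.81 ± 0.99 for Myh2 and 1.02 ± 0.27 for Myh8, none past the threshold (edgeR adjusted p = 0.308, 0.214 and 0.0727). In that comparison Myh6 moved from 0.95 ± 1.07 by record to 2.91 ± 1.28 by name, and Myh7b from 2.42 ± 1.24 to 3.88 ± 1.34.

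**Figure D3:**
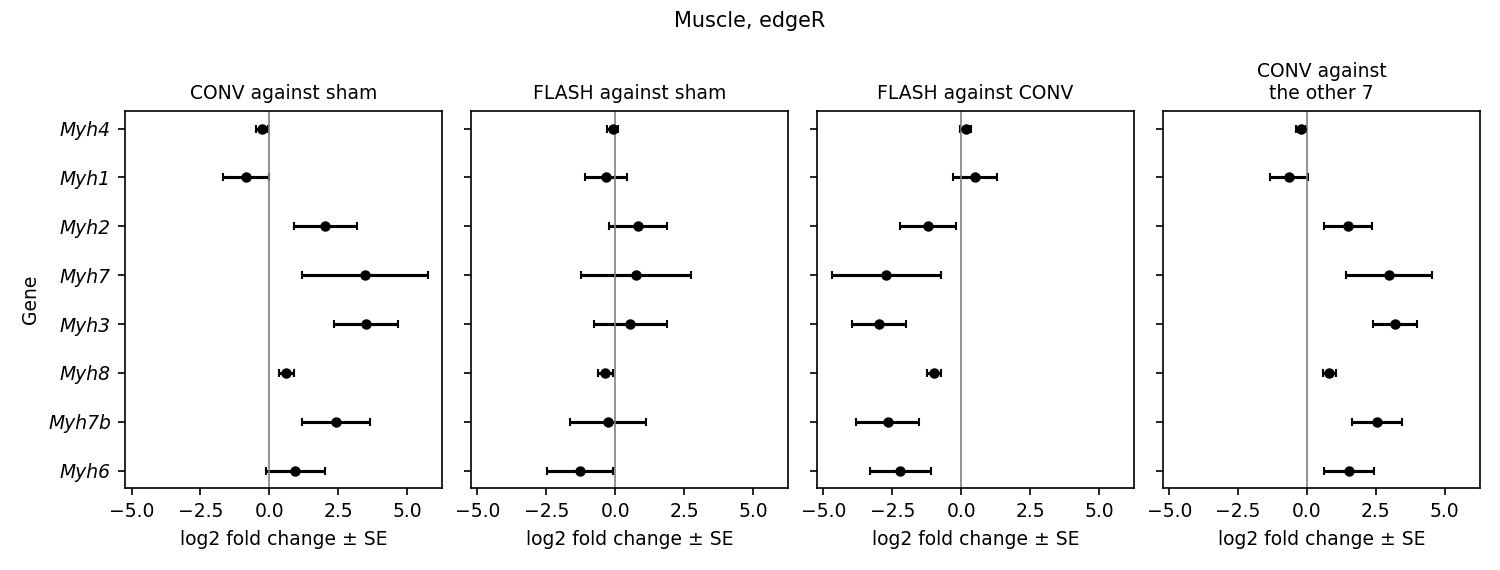
Log2 fold change with its standard error (points and bars) of the 8 heavy chain genes in 4 muscle comparisons by edgeR. Myh3 lies at 3.18 and Myh8 at 0.81 in CONV against the other 7 libraries, and Myh4 lies within 0.26 of 0 in every panel.

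Myh2, Myh3 and Myh7b followed Myh7 from library to library. Over the 10 muscle libraries, on the log2(TPM + 0.1) scale, Myh2 against Myh7 gave Pearson r = 0.937 and Spearman rho = 0.964, with permutation p of 5e-05 and 7e-05 (adjusted over the 7 genes compared with Myh7, 0.00035 and 0.000245). It was 0.911 without FLASH 3 and CONV 2, the libraries farthest from the median of Myh7. Myh3 gave r = 0.878 and rho = 0.976 (permutation p = 0.00025 and 1e-05, adjusted 0.000875 and 7e-05) and 0.876 without those libraries. Rank by rank, then, the level assigned to the embryonic gene ordered the libraries almost as that of the slow gene did. Myh7b gave r = 0.825 and rho = 0.867 (permutation p = 0.003 and 0.0022, adjusted 0.007 and 0.00513) and 0.64 without FLASH 3 and CONV 2. Of the 31-base words of the Myh3 model, 6.27% also occur in the full-length Myh2 model Myh2-203. The part of shared sequence in the relation of Myh3 to Myh2 and Myh7 was not tested.

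The order was similar among the 7 sham and FLASH libraries alone, where Myh2 gave r = 0.898 and rho = 1.00 (exact permutation p = 0.00575 and 0.000397, adjusted over 3 genes 0.00863 and 0.00119), and Myh3 r = 0.949 and rho = 0.964 (exact permutation p = 0.000397 and 0.00278, adjusted 0.00119 and 0.00417). Without FLASH 3 and sham 2 these were 0.982 and 0.933. Myh7b gave r = 0.642 and rho = 0.786 (exact permutation p = 0.125 and 0.048, adjusted 0.125 and 0.048), and r = 0.989 without the same libraries. Over the 10 libraries Myh4 (r = -0.298, rho = -0.236), Myh1 (-0.016, -0.042), Myh8 (0.228, 0.285) and Myh6 (0.448, 0.503) gave permutation p values of 0.146 to 0.964 against Myh7.

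**Figure D4:**
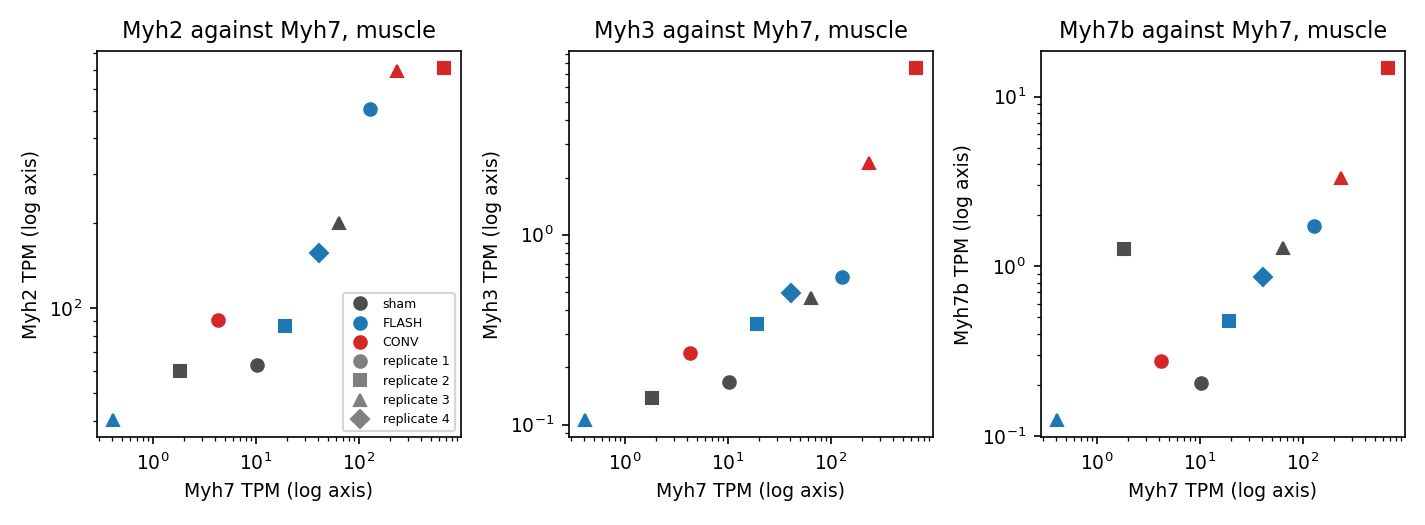
TPM of Myh2, Myh3 and Myh7b against TPM of Myh7 in the 10 muscle libraries, both axes logarithmic, colour showing the group and marker shape the replicate number. FLASH 3 (0.413 TPM of Myh7) is lowest and CONV 2 (674 TPM) highest in all 3 panels, CONV 1 lies low at 4.25 TPM, and sham 2 stands off the line for Myh7b.

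Outside the family, the genes whose log2 CPM tracked Myh7 most closely over the 10 muscle libraries, among 12726 protein-coding genes, were Tnnc1 (r = 0.996), Myl2 (0.987), Tnnt1 (0.977), Csrp3 (0.955) and Myl3 (0.955), and Itga4 had the lowest value (-0.933). Tnnc1 and Tnnt1 encode slow troponin subunits, and Myl2 and Myl3 the light chains that sit on the slow heavy chain. Myh2 had Pcp4l1 (0.986), Myl3 (0.983), Pdlim1 (0.981), Myoz2 (0.98) and Tnni1 (0.971) nearest, and Micu3 (-0.969) at the other end. Myh4 had Calm3 (0.974), the creatine kinase gene Ckm (0.965), Prkaa2 (0.959), Mybpc2 (0.955) and the fast actinin gene Actn3 (0.955), and Entpd1 (-0.977) at the other end. Myh3 had Ablim1 (0.968), Med24 (0.967), Sox9 (0.963), Atp2a2 (0.961) and Rp1 (0.961), and Lrrc20 (-0.951). These values are descriptions picked as extremes from all genes.

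The slow-fibre partners of Myh7, 12 genes that include slow troponins, slow light chains and calcium handling proteins, were higher in CONV than in the other 7 libraries in 12 of 12 cases, with a median log2 fold change of 2.38 and none called by edgeR. Their summed TPM was 202, 362 and 625 in the sham libraries, 1089, 235, 331 and 484 in FLASH and 171, 4929 and 1956 in CONV, so CONV 2, CONV 3 and FLASH 1 were again highest and CONV 1 lowest of all. Atp2a2, the slow calcium pump gene, was at 2.86 ± 1.00 and the slow troponin gene Tnni1 at 3.15 ± 1.22 (log2 fold change ± SE, edgeR adjusted p = 0.319 and 0.375). Of 12 fast-fibre partners of Myh4, 11 were lower and none was called (median -0.26), with the calcium store gene Casq1 at -0.41 ± 0.17 and parvalbumin, Pvalb, at -0.40 ± 0.18. The exception, Mybph, named for being alone, was at 1.95 ± 0.98.

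Among 8 tested light chain and light chain kinase genes the smallest adjusted p was that of Mylk2, the kinase of the skeletal regulatory light chain, at -0.74 ± 0.13 (edgeR adjusted p = 0.0517). Mylk2 was at 152, 134 and 121 TPM in CONV and 158 to 229 in the other 7 libraries, with no overlap in TPM. By log2 CPM, 2.47% of all genes lay below the other 7 in every CONV library. Myl6b was at 1.11 ± 0.40 and Myl2 at 2.96 ± 1.25. Of 31 regulators of fibre type 14 were higher and 17 lower with none called (median -0.07). They included Myod1 at 0.77 ± 0.17 (adjusted p = 0.107), Prox1, a regulator of slow fibre genes, at 1.53 ± 0.52 and Sox6, a repressor of slow genes, at -0.33 ± 0.12. Of 8 other thick filament genes 6 were higher (median 0.09), with Myom3, an M-band gene, at 2.51 ± 0.91. Of 10 genes of myosin folding and turnover 5 were higher, with the chaperone gene Cryab at 1.28 ± 0.29 and the ligase gene Trim63 at -0.38 ± 0.13, none called.

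Myh3 and Myh8 are read as marks of regenerating or denervated fibres, so genes of both states are set beside them. Of 9 tested genes of regenerating fibres 6 were higher in CONV than in the other 7 libraries with none called (median 0.11), and Myog was at 0.89 ± 0.39. The list holds 12 genes, and of these Mymk had 0 to 2, Mymx 0 to 1 and Myf5 1 to 10 counts in a muscle library. The summed TPM of the list was 542 to 725 in sham, 563 to 734 in FLASH and 617 to 812 in CONV. All 9 tested genes of denervated fibres were higher with none called (median 0.72). The list summed to 27.7 to 34.9 TPM in sham 1 to 3, 35.8 to 42.3 in FLASH and 57.3, 117 and 50.2 in CONV 1 to 3, with no overlap between CONV and the others. By log2 CPM, 1.98% of single genes lay above in every CONV library, a rate for genes and not for sums. Chrna1, an acetylcholine receptor subunit gene, was at 0.92 ± 0.23 (edgeR adjusted p = 0.144). Sln, which encodes the calcium pump regulator sarcolipin, was at 1.58, 40.9 and 3.88 TPM in CONV against 0 to 1.02 in the other libraries (5.08 ± 1.09, adjusted p = 0.150), so it made up 40.9 of the 117 TPM of the list in CONV 2. Of 9 cardiomyocyte markers, which also include Sln, 4 were tested and 4 were higher in CONV with none called (median 0.85, smallest edgeR adjusted p = 0.150). Their sum was 4.46 to 5.37 TPM in sham, 6.34 to 9.68 in FLASH and 12.5 to 52.8 in CONV. In the same list the atrial light chain gene Myl7 had 0 counts in every muscle library and the troponin gene Tnni3 had 0 to 3. Among other cell types, 7 of 7 fibroblast markers were lower in CONV (median -0.57) and 6 of 6 tested macrophage markers higher (median 0.36), none called. The part of these lists in the levels of Myh3 and Myh8 was not tested.

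In skin the heavy chains appeared with muscle RNA, and the amount of that RNA differed widely between libraries. The 16 skeletal muscle markers, which hold no heavy chain gene, summed to 32304, 156 and 3129 TPM in sham 1 to 3, 2640, 34396, 3068 and 508 in FLASH 1 to 4 and 4147, 4019 and 780 in CONV 1 to 3. Sham 1 and FLASH 2 were over 10 times the skin median. Myh4 was at 3594, 1.27 and 262 TPM in sham 1 to 3, 173, 2881, 284 and 1.28 in FLASH and 393, 130 and 10.4 in CONV. Every group spanned more than an order of magnitude and the groups overlapped. The 8 members together held 0.00492% to 1.19% of the counts of a skin library.

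Over the 10 skin libraries and on log2 scales Myh4 followed the marker sum with r = 0.96 and rho = 0.903 (permutation p = 7e-05 and 0.00087, adjusted over 8 genes 0.00056 and 0.00696), and with r = 0.943 without sham 2 and FLASH 2. Myh1 gave r = 0.856 and rho = 0.818 (permutation p = 0.00208 and 0.0057, adjusted 0.00555 and 0.0228, r = 0.642 without those libraries). Myh2 gave r = 0.875 and rho = 0.697 (permutation p = 0.00128 and 0.0305, adjusted 0.00512 and 0.061, r = 0.691). Myh3 gave 0.463 and 0.212 (permutation p = 0.182 and 0.561) and turned to -0.427 without sham 2 and FLASH 2, so its relation rests on them. Heavy chains and markers of a library come from the same RNA sample, so these relations are descriptions and not independent measurements.

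The mixture of chains varied more among skin libraries than among muscle libraries. On full-length models the share of Myh4 ran from 2.62% to 90.6% in skin and from 78.5% to 98.2% in muscle, and skin sham 1, FLASH 3 and CONV 1 lay inside the muscle range. Myh1 was at 219, 11.3 and 96.8 TPM in sham 1 to 3, 90.0, 768, 32.4 and 44.3 in FLASH and 52.5, 277 and 47.9 in CONV. It exceeded Myh4 in sham 2, FLASH 4, CONV 2 and CONV 3, that is in 4 of 10 skin libraries, and in 0 of 10 muscle libraries. Counted on full-length coding models, Myh1 was 815 of 985 heavy chain counts in sham 2, or 82.7% (exact Clopper-Pearson 95% interval 80.2 to 85.1, counting error only), 78.8% in FLASH 4 (77.6 to 79.9), 66.8% in CONV 3 (65.6 to 68.0) and 64.3% in CONV 2 (63.8 to 64.8). In sham 1 it was 5.11% (5.04 to 5.19). Of these 4 libraries 3 had the lowest muscle marker sums of the 10, the exception being CONV 2.

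Models that keep introns took part of the gene-level values of Myh7 and most of those of Myh8 in skin. Myh8-204, a model of 4999 bases annotated as retained intron, took 479, 456 and 340 counts in sham 1 to 3, 659, 385, 297 and 378 in FLASH and 362, 79.6 and 316 in CONV. The full-length Myh8-201 took 4.31, 0 and 22.5 in the sham libraries, 174, 303, 7.15 and 10.7 in FLASH and 19.8, 62.5 and 2.13 in CONV. Models with retained introns made up 57.5% to 99.8% of Myh8 counts in skin and 24.3% to 48.6% in muscle. For Myh7 the intron-keeping Myh7-202 took 72.5 to 234 counts in every skin library, while full-length Myh7 ran from 0 in CONV 3 and 1 each in sham 2 and FLASH 4 to 1797 in FLASH 2. Retained introns were 10.9% to 22.9% of Myh7 counts in sham 1, FLASH 2, FLASH 3 and CONV 1 and 54.6% to 100% in the other skin libraries. A count of 0 or 1 in those libraries means that slow myosin mRNA was at or near the limit of detection there, whatever the gene-level 1.52 to 2.23 TPM show.

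Of the 31-base words that only Myh8-204 has within its gene, 6.15% occur in other genes (2929 genes), against 1.36% for Myh7-202, so part of these counts could belong elsewhere. On full-length models Myh7 followed the muscle marker sum with r = 0.826 and rho = 0.842 (permutation p = 0.00154 and 0.00388, adjusted over 8 genes 0.0035 and 0.0155, r = 0.75 without sham 2 and FLASH 2). Myh8 gave r = 0.521 and rho = 0.527 (permutation p = 0.123 for both). Myh7b, at 1.36 to 4.79 TPM, gave -0.016 and 0.152 on all models (permutation p = 0.966 and 0.684).

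**Figure D5:**
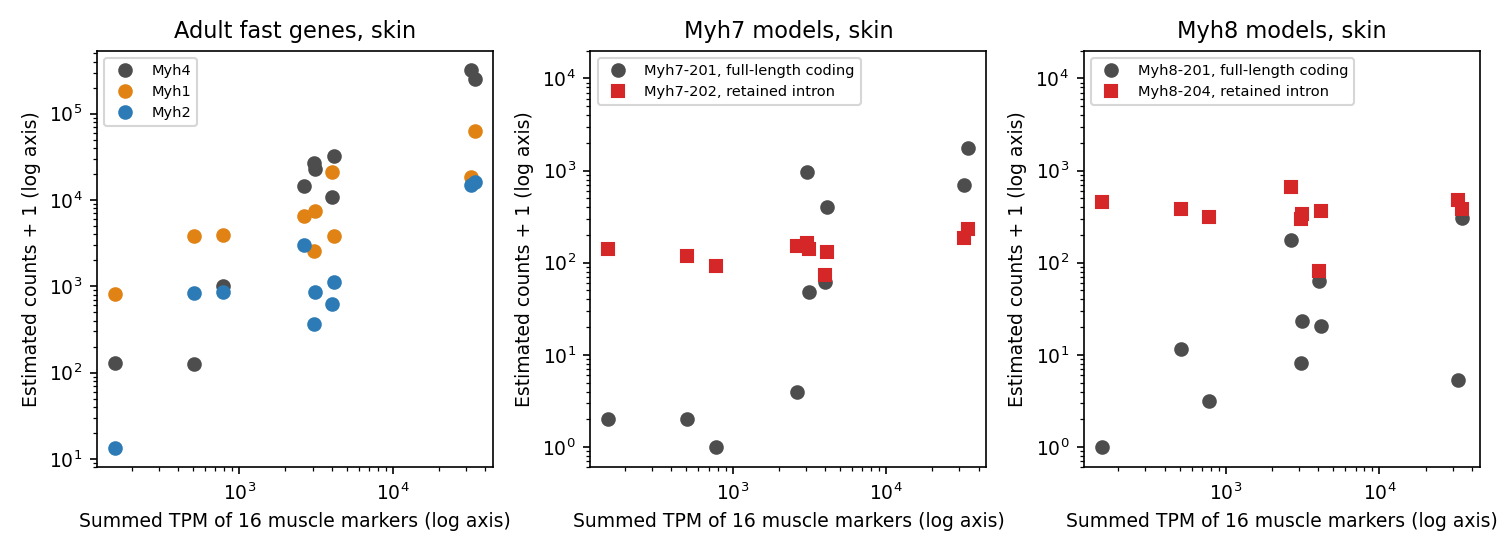
Estimated counts plus 1 in the 10 skin libraries against the summed TPM of 16 muscle markers, both axes logarithmic, for full-length Myh4, Myh1 and Myh2 (left) and for a full-length and a retained-intron model of Myh7 (middle) and Myh8 (right). The retained-intron models stay between 72.5 and 659 counts over the whole range of muscle RNA, while full-length Myh7-201 runs from 0 to 1742.

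Skin and muscle also split Myh1 and Myh4 between their full-length models in different ways. Myh1-201, the shorter of the main models of Myh1 at both untranslated ends, held 45.3% to 74.3% of its sum with Myh1-203 in skin against 23.1% to 37.3% in muscle, with no overlap. Myh4-202, which lacks the first, untranslated exon of Myh4-201 and is shorter at its end, took 1.71% to 100% of Myh4 counts in skin and at most 0.006 counts in muscle. The cause of these differences was not tested.

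Skin comparisons gave no call in any of 7 heavy chain genes tested with edgeR (Myh6 did not pass the low-count filter). CONV against sham put Myh7b at 1.08 ± 0.42 (log2 fold change ± SE, adjusted p = 0.203), Myh4 at -2.86 ± 2.54 and Myh1 at 0.41 ± 1.50. It called 0% of 20026 genes, with 4035 at an unadjusted edgeR p under 0.05 and 1630 called by DESeq2. FLASH against sham put Myh3 at 4.66 ± 1.83 (edgeR adjusted p = 1.00), a value in which FLASH 2 holds 451 of the counts and the other skin libraries 0 to 66. It called 0% of genes, with 132 at an unadjusted edgeR p under 0.05 and 4 by DESeq2. FLASH against CONV put Myh8 at 0.87 ± 0.43 and Myh7b at -0.83 ± 0.38 (edgeR adjusted p = 0.426 and 0.404), with 0% of genes called, 2540 at an unadjusted p under 0.05 and 457 by DESeq2.

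CONV skin against the other 7 skin libraries put Myh7b at 0.93 ± 0.32 (log2 fold change ± SE, edgeR adjusted p = 0.137), Myh8 at -0.69 ± 0.40, Myh2 at -2.51 ± 1.73 and Myh4 at -2.51 ± 2.20. Here 1.65% of genes were called and none of the 7 members, with 4696 genes at an unadjusted p under 0.05 and 2078 called by DESeq2. Without the 2 muscle-rich libraries, sham 1 and FLASH 2, edgeR called 0 genes, and it also called 0 without any 1 of sham 1 to 3 or FLASH 1 to 3. The 16 muscle markers had a median of -1.73 beside a median of -1.14 for the members, and the 2 libraries richest in muscle RNA were both outside CONV. Without those libraries Myh4 was at 0.49, Myh1 at 1.58 and Myh3 at 1.19 in this comparison, each with its sign turned, and Myh4 also turned in the other 3 skin comparisons. By library name, which leaves this comparison as it is, Myh7b in CONV against sham was at 1.38 ± 0.34 and Myh8 in FLASH against sham at -0.36 ± 0.43, against 0.45 ± 0.43 by record (edgeR adjusted p = 0.0678, 0.818 and 1.00). The part of that difference in muscle RNA in the values of the heavy chains was not tested. Tested as an interaction over all 20 libraries, no member responded differently in skin and muscle past the threshold, the smallest adjusted p being that of Myh8 for FLASH against CONV (1.82 ± 0.51 on the log2 scale, skin minus muscle, edgeR adjusted p = 0.313), in a comparison where 0.0156% of 19199 genes were called. In the muscle comparisons, the skin comparisons and the interaction, Myh8 was counted over all its models. Those with retained introns made up 57.5% to 99.8% of its counts in skin and 24.3% to 48.6% in muscle.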

How the data were processed

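RNA from 10 skin and 10 muscle samples was sequenced after ribosomal RNA depletion with a stranded total RNA kit, per the labels' protocols. The authors deposited kallisto tables with an estimated count per transcript (kallisto 0.5.0 and mm10, per the submitters' processing notes). The same deposited tables hold TPM, the authors' length-corrected value per transcript. Annotation release and strand setting were not given in the sources used here. Of 116116 transcripts, 114322 (98.5%) matched GENCODE M21, and 0.873% to 1.85% of a library's counts did not.

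Estimated counts were summed to genes, rounded, filtered with filterByExpr, scaled by TMM and tested with edgeR 4.0.16 (glmQLFit, glmQLFTest, R 4.3.3), with Benjamini-Hochberg adjustment over all genes at 0.05. All groups of a tissue shared 1 fit. DESeq2 1.42.0, RLE scaling, no low-count filter, a replicate block, assignment by library name, leaving out conflicting names and each library in turn were alternatives. Full-length coding models (at least 5000 bases) were an alternative chosen after seeing the data. Shares were compared by exact permutation, and correlations by 100000 permutations with a pseudocount of 0.1 TPM. None of the 12 library pairs compared in each tissue, which are not all pairs, was a duplicate by chi-square. Scripts were tested on simulated data. Whether replicate numbers pair samples was not settled, and the main fits did not pair them. Members and gene lists were chosen with earlier results of these data known. All 8 members are named. Other genes named are up to 4 a list with the smallest p in CONV muscle against the other 7 libraries, the nearest 5 and the farthest by correlation with a member, and the top gene of a comparison. Some listed genes with few or no counts are named as well.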

Additional observations from a re-analysis of the deposited data

Results flagged for a closer look

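Of 32 sets of 4 FLASH values examined for a single distant sample (Dixon's ratio above its 95% critical value), 5 had one, where about 5% of sets would by chance. All 5 were in skin. FLASH 2 stood above the other FLASH skin libraries for Myh1 (768.12 TPM), Myh3 (5.1331 TPM) and Myh4 (2880.7 TPM), and it was also the FLASH library with the most muscle marker RNA (34396 TPM). FLASH 3 stood apart in the share of Myh6, at 0.12047% of summed heavy chain TPM, a value that rests on 4 counts, 1 of them on Myh6-202, a model of 376 bases. FLASH 4, with the least heavy chain RNA of the FLASH skin libraries, stood apart in the share of Myh7b, at 2.9122%.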

How the results depend on the processing

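The log2 fold changes kept their direction and side of the threshold in 172 of 184 comparisons with another setting in muscle and in 171 of 189 in skin, leaving out single libraries apart, and no member was called except Myh3 without CONV 1. Genes called in muscle were 49 (CONV against sham), 1 (FLASH against sham), 41 (FLASH against CONV) and 159 (CONV against the other 7) with DESeq2. Without the low-count filter they were 23, 21 and 53 for the comparisons with CONV, by library name 164 for CONV against sham, and without conflicting names 0 for FLASH against CONV and 0 for CONV against the other 7. In skin, DESeq2 called 1630, 4, 457 and 2078 in the same order, and for CONV against the other 7, 0 were called without conflicting names and 0 without the muscle-rich libraries. The replicate block gave 0 (CONV against sham), 0 (FLASH against CONV) and 1 (CONV against the other 7) in muscle and 15, 1 and 1292 in skin, with no member called. Deviations of same-numbered samples had correlations of -0.235 to 0.213 in muscle and -0.711 to 0.517 in skin. Without samples of unlike number beside them, these values cannot settle whether the numbers pair samples. With the block, FLASH against sham turned to 0.37 for Myh1 and 0.23 for Myh7b in muscle, and to 0.54 for Myh2, -0.26 for Myh1 and 0.50 for Myh4 in skin, where Myh1 in CONV against sham turned to -0.82.

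Leaving out 1 library gave 0 to 29 genes (CONV against sham), 0 to 24 (FLASH against CONV) and 1 to 89 (CONV against the other 7, with 0 to 1 members) in muscle, and 0 to 406, 0 to 117 and 0 to 1454 in skin. The log2 fold change of Myh3 ran from 1.88 to 3.72 in CONV against the other 7. For FLASH against sham it ran from -0.24 to 1.59 (Myh2), -1.82 to 1.13 (Myh6), -0.70 to 2.77 (Myh7), -0.81 to 0.69 (Myh1), -0.18 to 0.13 (Myh4) and -1.18 to 0.61 (Myh7b), and for CONV against sham from -1.32 to 0.19 (Myh1). Share differences, in percentage points, ran from -3.09 to 3.64 (Myh4), -4.42 to 2.25 (Myh1), -0.23 to 1.57 (Myh2) and -0.08 to 0.47 (Myh7) for FLASH against sham. For Myh1 they ran from -5.62 to 1.06 for CONV against sham and -0.39 to 2.35 for FLASH against CONV.

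By library name, FLASH against sham turned to 1.89 (Myh6), 0.34 (Myh8), 0.73 (Myh1) and 1.83 (Myh7b), and the share differences to -6.04 (Myh4) and 3.42 (Myh1), with 0.16 for Myh1 in CONV against sham. Without conflicting names, Myh1 turned to 1.35 (CONV against sham), 1.28 (FLASH against sham), -0.08 (FLASH against CONV) and 0.58 (CONV against the other 7), and its shares to 3.44, 2.63, -0.81 and 2.13. In FLASH against sham Myh6 turned to 0.50, Myh7b to 0.59 and the Myh4 share to -4.09. The cause was not tested.

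In skin, Myh8 in FLASH against sham turned to -0.36 by library name and Myh3 in CONV against the other 7 to 1.40 with DESeq2. Without the muscle-rich libraries, CONV against sham turned to 1.24 (Myh2), 1.02 (Myh7) and 0.66 (Myh4), FLASH against sham to 1.71 (Myh2), 0.28 (Myh4) and -0.18 (Myh7b), FLASH against CONV to -0.71 (Myh3), -1.55 (Myh1) and -0.39 (Myh4), and CONV against the other 7 to 1.19 (Myh3), 1.58 (Myh1) and 0.49 (Myh4). Without single libraries the ranges that cross 0 were, for CONV against sham, -3.14 to 1.26 (Myh2), -1.73 to 1.05 (Myh7), -1.20 to 1.68 (Myh1) and -3.99 to 0.67 (Myh4). For FLASH against sham they were -2.09 to 3.73 (Myh2), -1.20 to 2.39 (Myh1), -3.29 to 2.85 (Myh4) and -0.19 to 0.44 (Myh7b). They were -0.77 to 3.67 (Myh3), -1.61 to 2.32 (Myh1) and -0.43 to 3.31 (Myh4) for FLASH against CONV, and -2.90 to 1.44 (Myh3) and -1.94 to 0.89 (Myh1) for CONV against the other 7. Myh3, Myh8, Myh7b and Myh6 rest on few counts in most muscle libraries, so small differences in them were not detectable at this depth.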

Other observations

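Other myosin heavy chain genes gave a further set of values. Of 5 tested in muscle (Myh9, Myh10, Myh11, Myh13 and Myh14), 5 had positive values in CONV against the other 7 libraries with none called by edgeR (median log2 fold change 0.34). Myh14, a nonmuscle chain, was at 0.34 ± 0.10 (log2 fold change ± SE, edgeR adjusted p = 0.210), the nonmuscle chain Myh9 at 0.28 ± 0.13 and Myh10 at 1.03 ± 0.49. Myh11, the smooth muscle chain, was at 0.46 ± 0.37, and Myh13, a sarcomeric chain of eye muscles, at 0.02 ± 0.88.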
